A study of Mus musculus with 24 samples.

Results

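The ileum of mice carrying an intestinal deletion of Abca1 was compared with that of floxed controls, with both genotypes given GW3965 after small bowel resection. The comparison rests on 6 of the 24 RNA sequencing libraries of the series: 3 of Abca1 fl/fl ileum (called floxed below) and 3 of Abca1 fl/fl X Villin-Cre ileum (called Villin-Cre below), chosen by tissue, genotype and treatment label. All animals were C57BL/6 mice in which 75% of the small bowel had been removed, so resection is common to both groups. The drug GW3965 activates the liver X receptors. It was dosed orally at 1 mg/kg/day in carboxymethyl cellulose (0.5%), on 2 occasions per week for the last 5 of 10 weeks that followed surgery. Cre under the Villin promoter acts in intestinal epithelium, so muscle, immune, vascular and nerve cells of the Villin-Cre ileum keep the floxed allele. Neither the ages of the mice nor which animal gave which library are in the labels. The 6 ileal libraries of the same genotypes given vehicle served to show which differences also appeared without the drug. They also entered the scaling, the choice of genes tested and the estimate of spread behind each p-value.

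The liver X receptors LXRα (gene Nr1h3) and LXRβ (gene Nr1h2) are nuclear receptors for oxysterols, bound to DNA as partners of the retinoid X receptor. In enterocytes they switch on the sterol exporters ABCA1, ABCG5 and ABCG8, and through SREBP-1c (gene Srebf1) the enzymes of fatty acid synthesis. ABCA1 sits in the basolateral membrane and passes cholesterol and phospholipid to apolipoprotein A-I, which starts a high-density lipoprotein particle.

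Sequence upstream of the start site is shown for the 3 LXR targets whose promoters share a stretch of sequence: the deleted gene, the gene of SREBP-1c and that of fatty acid synthase. The windows are the 250 bases before the start, from RefSeq on GRCm38.p6, on the minus strand and written 5′ to 3′. They lie at chr4:53159896-53160145 for Abca1, chr11:60210472-60210721 for Srebf1 (the third of 3 listed starts) and chr11:120824548-120824797 for Fasn. Capitals mark the longest stretch that the 3 promoters share when 2 neighbouring bases may differ, TGACCGNNAGTAACCCC, in which N is any base; it was searched on both strands.
Abca1: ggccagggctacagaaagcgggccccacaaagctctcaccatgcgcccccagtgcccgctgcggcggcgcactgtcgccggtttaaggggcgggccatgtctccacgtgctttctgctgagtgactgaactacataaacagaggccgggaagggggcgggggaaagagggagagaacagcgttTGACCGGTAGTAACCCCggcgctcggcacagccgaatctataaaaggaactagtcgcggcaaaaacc
Srebf1: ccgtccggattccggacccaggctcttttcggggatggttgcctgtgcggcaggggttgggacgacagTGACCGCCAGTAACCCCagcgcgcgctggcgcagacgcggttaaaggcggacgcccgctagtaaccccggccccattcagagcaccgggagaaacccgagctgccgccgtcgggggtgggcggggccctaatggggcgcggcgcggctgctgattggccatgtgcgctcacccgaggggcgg
Fasn: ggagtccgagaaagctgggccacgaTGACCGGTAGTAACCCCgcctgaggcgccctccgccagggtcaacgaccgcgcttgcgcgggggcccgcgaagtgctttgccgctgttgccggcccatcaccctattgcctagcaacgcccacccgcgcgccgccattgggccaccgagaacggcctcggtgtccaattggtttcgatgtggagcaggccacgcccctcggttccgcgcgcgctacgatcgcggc
The match begins 67 bases before the start in Abca1, 182 bases in Srebf1 and 225 bases in Fasn. The stretch has 17 bases and was taken from these windows, so that they hold it by construction; no other of the 32851 windows of the table holds it (3 in all, 0.00913%). Of the 26 listed LXR genes, 18 had a promoter in the table (24 windows), and no further window of the list held the match. A match is a description of the letters and no measure of binding.

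Depth was 17.7 to 22.9 M assigned reads in the floxed and 21.1 to 24.2 M in the Villin-Cre libraries. Expression levels are CPM, a gene's reads set against the assigned total of its library, rescaled so that the median gene ratio to a mean library is level, and differences are log2 values ± SE from limma on log2(CPM + 0.5), which understates the change of low genes. The predicted gene Gm26917 took 6.56 to 7.91% of the floxed and 3.92 to 4.20% of the Villin-Cre reads. Without rescaling the median of all genes moved to -0.24, so every difference here is relative to that shift. Libraries within a group lay close together (variance between libraries 2.63 to 4.70 times the Poisson variance over 10 ileal pairs), except floxed GW3965 replicate 3, which was at 10.1 and 10.99 from its own group. Pairs across the 2 genotypes with GW3965 measured 34.5 to 45.1. Reads were paired, and 66.7 to 70.4% of low gene counts in the ileal libraries were even. If both reads of a pair were counted, reads are not independent, and the Poisson variance is set too low. The spread within groups would then lie nearer to sampling noise than these ratios show, and depth in fragments would be lower. Whether pairs were counted so was not tested. Since replicates 1 and 2 lay together, the floxed group is treated as 2 sources, and "against each floxed source" below means called the same way without replicate 3 and with replicate 3 as the only floxed library. In the second of these tests the floxed GW3965 group is 1 library, whose spread is not measured but assumed to be like that of the other 3 ileal groups. Nothing in the labels says that libraries came from separate animals, so the p-values reflect library-to-library spread that may be technical. All 12 ileal libraries were of male type, with 23.5 to 57.6 CPM for each of 4 Y-linked genes and 0.084 to 0.974 CPM for Xist.

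In all, 4791 of 18671 tested genes were higher (25.7%) and 4389 were lower (23.5%) in Villin-Cre ileum at an adjusted p under 0.05, so 49.2% of genes passed. The shares higher and lower are the background for the counts of each list below. At least 2-fold, 770 were higher (4.12%) and 1403 lower (7.51%). The 3 libraries of one group did not overlap those of the other in 10197 genes (54.6%). Without rescaling the split was 2529 higher (13.6%) to 7153 lower (38.3%), 51.9% in all. Without replicate 3 it was 27.5% higher and 24.8% lower (52.3%), and with replicate 3 as the only floxed library 21.4% and 17.6% (39.0%). Against each floxed source, 3398 were higher (18.2%) and 2640 lower (14.1%), 32.3% together. With vehicle 34.7% of genes passed, 20.1% higher and 14.6% lower, and the difference between the treatments passed in 33.9%. With the close libraries averaged, which leaves 1 residual degree of freedom, 1 gene was called (Mt1, 0.00536%), and 4365 had an unadjusted p under 0.05 (23.4%). All 12 ileum and villus markers were detected in both groups, summing to 9212 to 9364 CPM in floxed and 18818 to 19363 CPM in Villin-Cre libraries. Proximal bowel markers were detected too, summing to 2380 to 4042 and 6506 to 6798 CPM, so detection alone does not tell the bowel regions apart.

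Abca1, the target of the deletion, was lower with Villin-Cre. It measured 399, 403 and 243 CPM in the 3 floxed libraries and 60.4, 62.2 and 61.6 CPM in the 3 Villin-Cre libraries. All 3 floxed libraries lay above all Villin-Cre libraries, and replicate 3 was the lowest of its group. The log2 difference was -2.46 ± 0.14, adjusted p = 3.35e-10. With vehicle, Abca1 stood at 52.96, 49.97 and 49.01 CPM in floxed against 27.05, 32.5 and 29.8 CPM with Villin-Cre, so that the Villin-Cre libraries given GW3965 lay above the floxed libraries given vehicle. The values sum reads over the whole gene and all cells of the tissue, so RNA of cells lacking Cre, and any exons that Cre leaves in place, count as well.

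LXR target genes were mostly lower in Villin-Cre ileum. Of 24 tested, 15 were lower, 4 higher and 5 did not pass, with a median log2 difference of -0.42 beside 0.00 over all genes tested. The list includes Abca1, whose fall is set by the deletion, and the receptor genes Nr1h3 and Nr1h2. Against each floxed source 11 were lower and 3 higher, and the median was -0.70 without rescaling. Their summed level was 5209 to 6478 CPM in floxed and 3203 to 3239 CPM in Villin-Cre libraries. With vehicle the same list had 8 higher and 4 lower members (median 0.07).

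Srebf1, the master gene of fatty acid synthesis, was at 456, 456 and 244 CPM in floxed against 92.4, 96.5 and 94.6 CPM with Villin-Cre (-1.96 ± 0.16, adjusted p = 3.90e-08). Fasn, fatty acid synthase, measured 512, 539 and 719 against 159.7, 174 and 152 CPM (-1.85 ± 0.10, adjusted p = 1.66e-10). Scd2, a stearoyl-CoA desaturase, stood at 1828, 1855 and 810.3 against 419, 409 and 406 CPM (-1.77 ± 0.20, adjusted p = 1.62e-06). In all 3 genes the groups did not overlap, and replicate 3 was the lowest floxed library for Srebf1 and Scd2 and the highest for Fasn. The cholesterol exporter of macrophages Abcg1 was at 38.9, 38.5 and 26.9 against 11.8, 9.89 and 10.8 CPM (-1.62 ± 0.14, adjusted p = 9.28e-08). Acaca, which makes malonyl-CoA, was at 147, 162 and 146 against 72.3, 73.7 and 75.1 CPM. Scd1, the main desaturase of oleate synthesis, measured 1095, 1119 and 1332 against 671, 653 and 673 CPM. Neither overlapped between groups, and their log2 differences were -1.04 ± 0.06 and -0.82 ± 0.06.

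The apical sterol exporters had smaller differences. Abcg5 stood at 454, 472 and 392 CPM in floxed against 320.2, 331 and 335 CPM with Villin-Cre (-0.41 ± 0.06, adjusted p = 3.12e-05). Its partner Abcg8 was at 460.1, 465 and 405 against 349, 355 and 343 CPM (-0.34 ± 0.06, adjusted p = 1.11e-04). The groups of both genes did not overlap, with replicate 3 again the lowest floxed library. With vehicle Abcg5 was at 85.5 ± 2.71 CPM in floxed against 122 ± 1.68 CPM with Villin-Cre (SD, n = 3). Also lower were Lpl, lipoprotein lipase (log2 difference -0.96), and Pltp, the phospholipid transfer protein (-0.74). The small GTPase Arl4c (-1.59), the ubiquitin ligase of the LDL receptor Mylip (-0.43) and Smpdl3a (-0.26) were lower too, but did not pass with replicate 3 as the only floxed library. Higher members included Nr1h3 (0.58), the phospholipid remodelling enzyme Lpcat3 (0.39, not passing without rescaling) and Apoc2 (1.79). Apoc2, a cofactor of lipoprotein lipase, measured 10.02, 8.90 and 53.7 CPM in floxed libraries, where replicate 3 came close to the Villin-Cre levels of 55.6, 58.6 and 66.2 CPM. Nr1h2 did not pass, at 92.8 ± 3.65 against 94.6 ± 2.39 CPM (log2 0.03), and turned to a lower call without rescaling. Apoe stood at 210.01 ± 16.03 against 233 ± 9.57 CPM and did not pass.

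**Figure D1:**
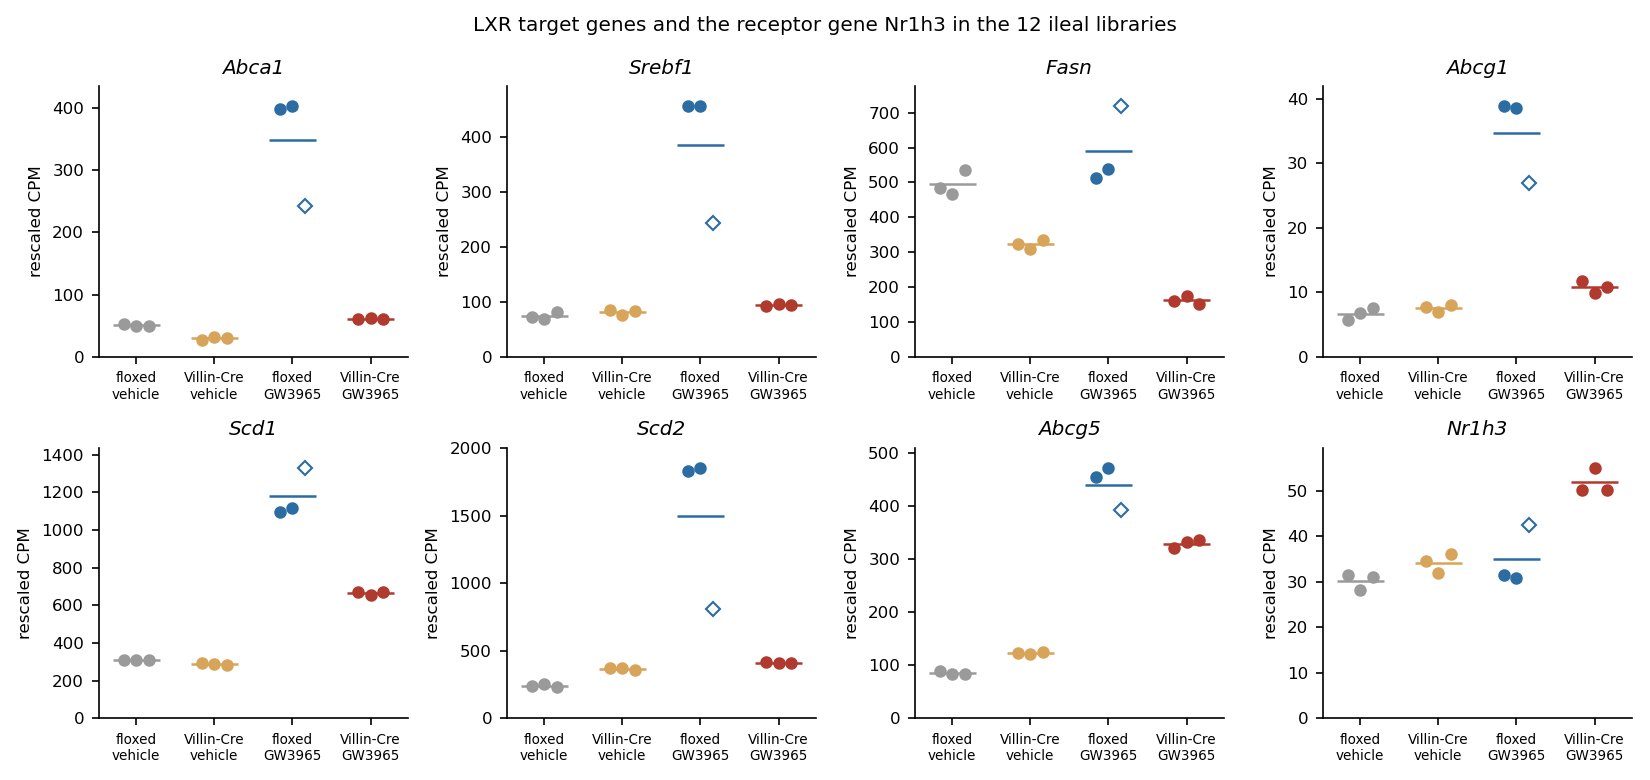
Rescaled CPM (y axis, from 0) of 8 genes in the 12 ileal libraries, by genotype and treatment; points are libraries, lines group means, and the open diamond is floxed GW3965 replicate 3. With GW3965 the 3 floxed libraries lie above the 3 Villin-Cre libraries for each gene but Nr1h3, and Abca1 spans 243 to 403 CPM in floxed and 60.4 to 62.2 CPM in Villin-Cre ileum.

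Genes of fatty acid synthesis and of triglyceride assembly were found on both sides. Of 25 genes of both, 13 were lower and 10 higher (median -0.63), and 13 and 7 against each floxed source. Acaca, Srebf1, Fasn, Scd1 and Scd2 are also in the LXR list, so the lists are not separate evidence. Beside Fasn and Acaca, the desaturase Fads2 was at 57.6, 64.03 and 48.4 against 17.7, 13.6 and 15.5 CPM (-1.83 ± 0.10, adjusted p = 3.08e-10). Mogat2, which re-esterifies absorbed monoacylglycerol, was higher, at 169.8, 174 and 193 against 342, 333 and 325 CPM (0.90 ± 0.05, adjusted p = 8.25e-10).

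Genes of cholesterol synthesis and uptake were higher in 18 of 26 cases and lower in 1, with a median of 0.34. Without rescaling the count was 10 higher to 5 lower and the median 0.06. Hmgcs1, an early enzyme of the mevalonate pathway, measured 296, 296 and 236 CPM in floxed against 436, 430.4 and 436 CPM with Villin-Cre (0.66 ± 0.07, adjusted p = 5.73e-07). Insig2, a brake on SREBP processing, stood at 35.1, 37.2 and 35.1 against 60.5, 54.4 and 60.1 CPM (0.69 ± 0.07, adjusted p = 8.15e-07). With vehicle, 21 members were higher in Villin-Cre ileum (median 0.51). Among 16 genes of HDL and apolipoproteins, 6 were higher and 2 lower, and the median of 0.16 turned to -0.04 without rescaling. Apoa1, the acceptor of cholesterol from ABCA1, was at 5215, 5293 and 4213 CPM in floxed against 10886, 11108 and 10889 CPM with Villin-Cre (1.17 ± 0.08, adjusted p = 3.42e-09). Apob, the scaffold of chylomicrons, measured 6355, 6318 and 4568 against 10591, 10323 and 10542 CPM (0.88 ± 0.10, adjusted p = 1.04e-06). Mttp, which loads lipid onto it, stood at 651, 647 and 703 against 1264, 1253 and 1288 CPM.

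Genes of the absorptive epithelium were higher in Villin-Cre ileum. All 17 tested brush border hydrolases were higher, with a median log2 difference of 1.22 (0.94 without rescaling, 15 called), and all 17 against each floxed source. Alpi, intestinal alkaline phosphatase, was at 584, 595 and 619 CPM in floxed against 1726, 1765 and 1727 CPM with Villin-Cre (1.54 ± 0.05, adjusted p = 3.11e-12). Naaladl1, a brush border peptidase, measured 3292, 3292 and 3330.4 against 8278, 8295 and 8266 CPM (1.32 ± 0.05, adjusted p = 6.54e-12). Floxed replicate 3 lay near its group in both. Of 24 absorptive enterocyte markers, 24 were higher (median 0.93), among them Fabp2, the intestinal fatty acid binding protein, at 716, 725 and 1031 against 3766, 3856 and 3776 CPM (2.23 ± 0.10, adjusted p = 2.81e-11). Krt20, a keratin of the villus, stood at 772 ± 58.7 against 1702 ± 24.96 CPM. With vehicle 23 of the 24 enterocyte markers were higher and 1 lower (median 0.72). The difference between the treatments passed above 0 in 12 and below 0 in 3.

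The ileal tissue was measured whole, so fewer cells of one kind and less RNA per cell cannot be told apart, here and in every list below. The summed level of 17 smooth muscle markers was 3315 to 5106 CPM in floxed and 1672 to 1701 CPM in Villin-Cre libraries, that of 29 cell cycle genes 355 to 472 against 153 to 158 CPM, and no member of either list was at 0. The part of these tissue shares in the epithelial differences was not tested.

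Most genes of lipid absorption were higher. Of 21 such genes, 19 were higher and 2 lower (median 0.88, 0.60 without rescaling). Npc1l1, the intestinal cholesterol importer, was at 977, 987 and 993 CPM in floxed against 2008, 1978 and 2017 CPM with Villin-Cre (1.02 ± 0.04, adjusted p = 2.36e-11). Creb3l3, a membrane-bound transcription factor of lipid handling, measured 135, 150.3 and 164 against 394, 385 and 381 CPM (1.37 ± 0.07, adjusted p = 6.98e-11). Sar1b, needed to ship chylomicrons, stood at 37.5, 36.1 and 41.2 against 125, 112 and 115 CPM (1.61 ± 0.08, adjusted p = 7.40e-11). The 3 genes were tight within each group and free of overlap. The list had 12 higher and 3 lower members with vehicle, and its median there was 0.19.

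Bile acids are taken back in the ileum, and the main transport genes of that route were higher. Fabp6, the cytosolic bile acid carrier, was at 1527, 1529 and 1056 CPM in floxed against 5819, 6097 and 5764 CPM with Villin-Cre (2.12 ± 0.11, adjusted p = 9.74e-11). Slc10a2, the apical importer, measured 239, 234 and 262 against 537, 525 and 507 CPM (1.09 ± 0.05, adjusted p = 5.96e-11). Abcc2, an apical exporter of conjugates, stood at 333, 351 and 247 against 962, 934 and 946 CPM (1.63 ± 0.09, adjusted p = 4.35e-10). All floxed libraries lay below the Villin-Cre range in these genes. The basolateral exporter subunit Slc51a was higher as well (0.94 ± 0.08). Over 13 tested genes, 7 were higher and 3 lower (median 0.83); without floxed replicate 3 the counts were 7 and 3 and the median 0.27, and without rescaling 6 and 4. Fabp6 did not pass with vehicle (1187 ± 78.4 against 1284 ± 66.3 CPM), and the difference between the treatments was 2.01 ± 0.15, adjusted p = 4.02e-08.

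Nutrient transporters were higher in 22 of 31 cases and lower in 2 (median 0.85; without rescaling 19 and 6). Slc6a19, the neutral amino acid carrier of the brush border, was at 826, 848 and 774 against 2034, 2077 and 2055 CPM (1.33 ± 0.05, adjusted p = 4.64e-12). Slc5a6, a carrier of biotin and pantothenate, measured 57.4, 57.3 and 56.9 against 145, 139 and 142 CPM. Atp2b1, the plasma membrane calcium pump, stood at 355 ± 8.79 against 796 ± 17.4 CPM. No group of these 3 genes overlapped the other. Proximal bowel markers were also higher in 5 of 8 cases. Gata4, a factor of the jejunum, was at 3.49, 3.80 and 2.65 CPM in floxed against 13.1, 14.4 and 12.4 CPM with Villin-Cre (1.86 ± 0.14, adjusted p = 9.12e-09), whereas with vehicle it measured 25.04, 29.2 and 29.4 against 5.35, 4.65 and 5.23 CPM, the opposite order. Lct, lactase, stood at 2.04, 2.60 and 5.56 against 66.3, 71.4 and 71.5 CPM (4.27 ± 0.28, adjusted p = 3.05e-09). Sis, sucrase-isomaltase, was at 2069.7, 2078 and 3231 against 6041, 5712 and 5960.4 CPM. Of 25 epithelial transcription factors, 13 were higher and 4 lower (median 0.32, 0.04 without rescaling); Gata5 and Cdx2 were among the higher (0.89 and 0.56).

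**Figure D2:**
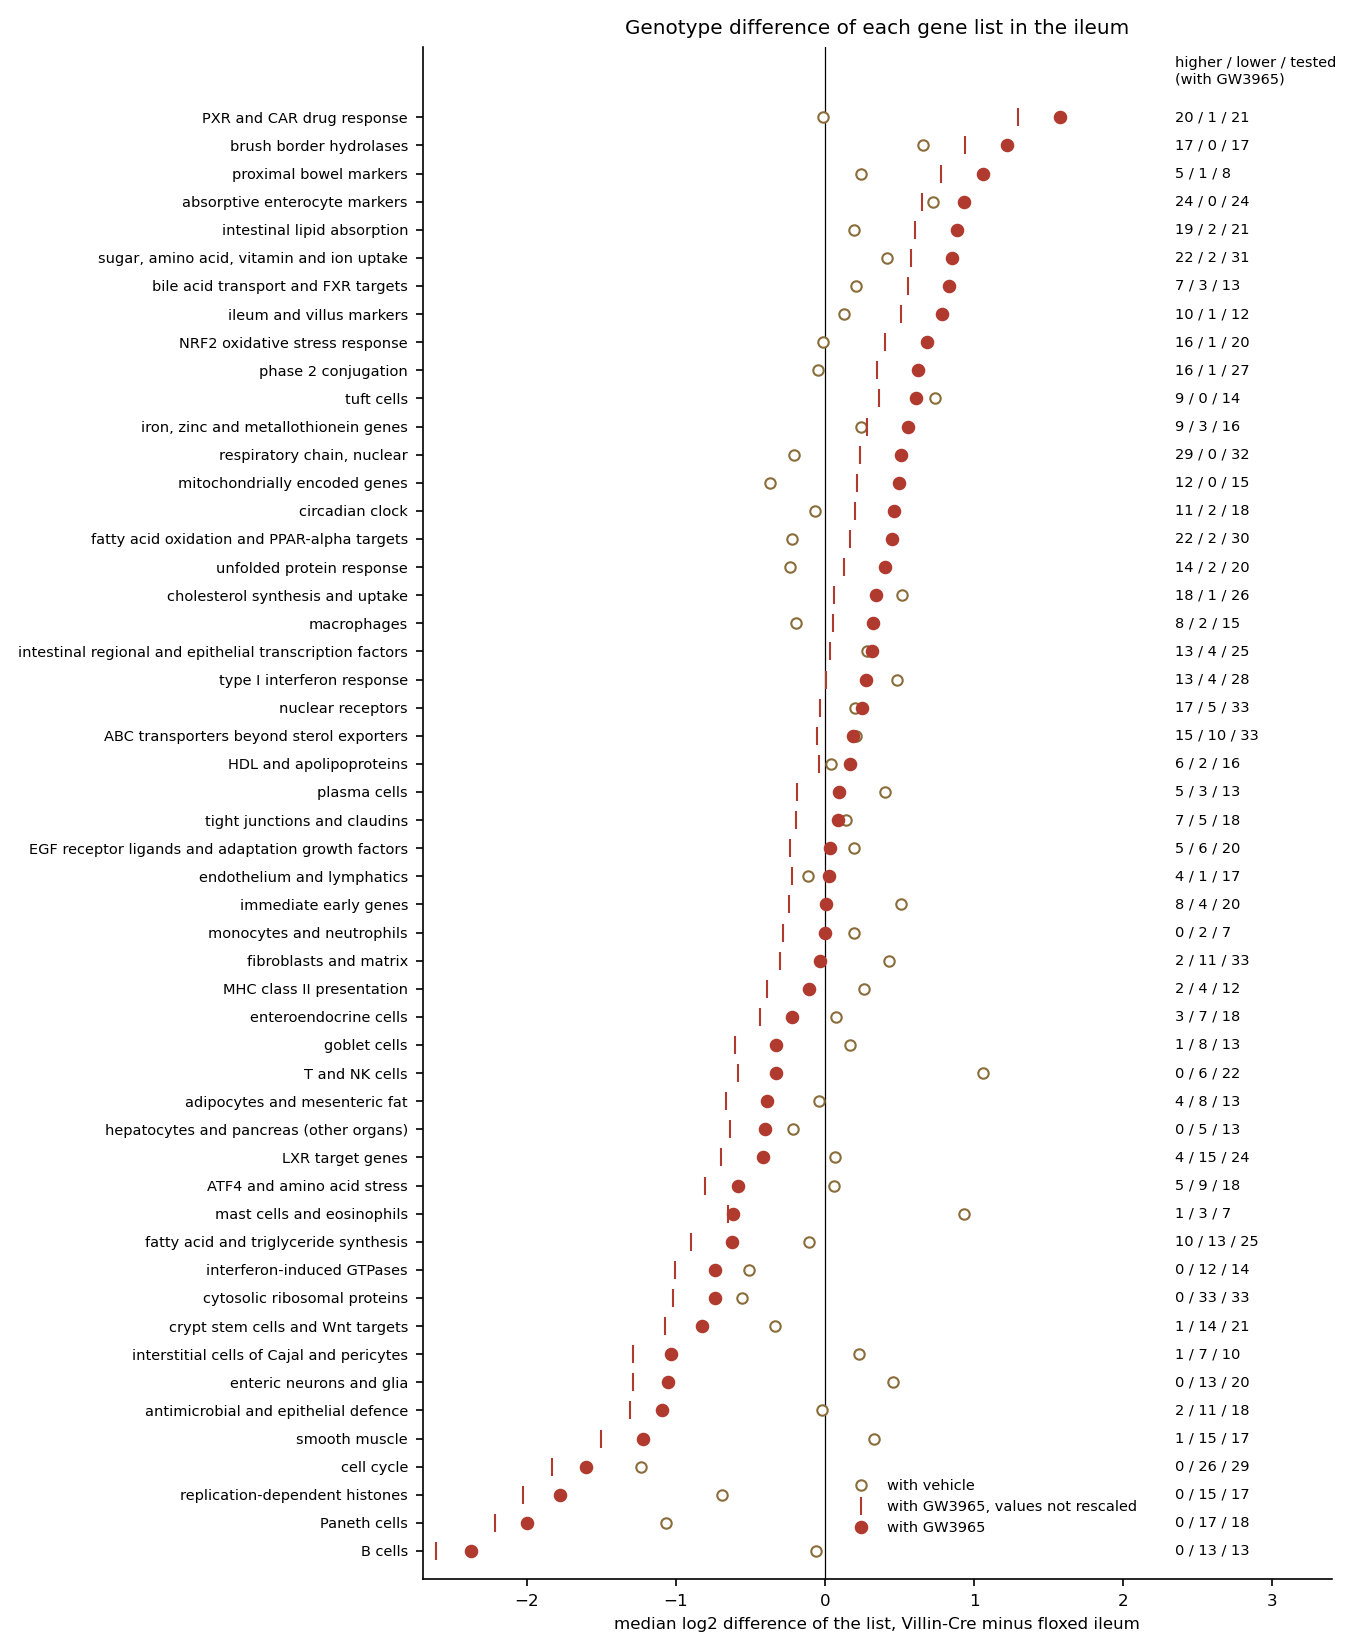
Median log2 difference (x axis, Villin-Cre minus floxed ileum) of each of the 52 gene lists (y axis), with GW3965 (filled), with GW3965 without rescaling (ticks) and with vehicle (open). Numbers give members higher, lower and tested with GW3965; drug response genes stand highest at 1.58 and B cell genes lowest at -2.38, and the ticks lie to the left of the filled points.

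Drug metabolism genes had the highest list median. PXR (gene Nr1i2) and CAR are nuclear receptors that sense foreign compounds and switch on cytochromes P450, carboxylesterases and efflux pumps. Of 21 such genes, 20 were higher and 1 was lower, 18 higher by at least 2-fold (background 4.12%), with a median of 1.58. Against each floxed source 20 were higher, and 18 without rescaling. The list's summed level was 1319 to 1345 CPM in floxed and 6537 to 6651 CPM in Villin-Cre libraries. With vehicle it was 691 to 706 against 678 to 691 CPM, with 5 members higher and 5 lower.

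Abcb1a, which encodes the efflux pump P-glycoprotein, measured 475, 479 and 480.3 CPM in floxed against 3199, 3264 and 3262 CPM with Villin-Cre (2.76 ± 0.05, adjusted p = 2.20e-16). Cyp2c55, an intestinal cytochrome, stood at 4.54, 4.63 and 2.48 against 177, 175 and 176 CPM (5.38 ± 0.21, adjusted p = 6.84e-12). Cyp3a11, the main mouse Cyp3a enzyme, was at 5.12, 4.998 and 6.94 against 141, 137 and 144 CPM (4.53 ± 0.28, adjusted p = 1.14e-09). The carboxylesterase Ces2a was at 62.4, 64.97 and 38.6 against 838, 885 and 842 CPM (3.97 ± 0.14, adjusted p = 2.12e-12). All Villin-Cre libraries lay far above all floxed libraries in the 4 genes, and replicate 3 was the lowest floxed library for Cyp2c55 and Ces2a. Aldh1a1, which makes retinoic acid, was higher, at 149 ± 6.51 against 418 ± 6.80 CPM. The Cyp2c, Cyp3a, Ces2, Gstm and Ugt families hold near-identical copies, so counts of single members are uncertain. The receptor gene Nr1i2, named after its values were seen, measured 101, 102 and 99.6 against 127, 129.9 and 128 CPM (log2 0.34 ± 0.05) and did not pass without rescaling.

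Conjugating enzymes and oxidative stress genes were higher too. Of 27 phase 2 genes, 16 were higher and 1 lower (median 0.62). Gstm3, a glutathione transferase, stood at 2.13, 0.729 and 1.73 CPM in floxed against 86.5, 76.8 and 85.1 CPM with Villin-Cre (5.43 ± 0.32, adjusted p = 6.42e-10). Ugt2b34, a glucuronosyltransferase, was at 165, 172 and 165 against 373, 345 and 357 CPM. Of 20 genes of the NRF2 oxidative stress response, among them Nfe2l2, the gene of NRF2 itself, 16 were higher and 1 lower (median 0.68, 0.40 without rescaling). Gclm, a subunit of glutathione synthesis, measured 47.1, 47.7 and 52.5 against 134, 126 and 126 CPM (1.38 ± 0.07, adjusted p = 1.82e-10). Txnrd1, thioredoxin reductase, stood at 146, 147 and 157 against 283, 293 and 291 CPM (0.94 ± 0.05, adjusted p = 2.63e-10).

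Metallothionein genes moved in opposite directions. Mt1, a zinc-binding metallothionein, was at 46.8, 48.4 and 51.3 CPM in floxed against 985, 1039 and 1018 CPM with Villin-Cre (4.36 ± 0.07, adjusted p = 9.00e-17), the only gene called with the close libraries averaged. Its neighbour Mt2, named after its values were seen, measured 23.5, 26.3 and 18.4 against 9.41, 9.12 and 9.78 CPM (-1.21 ± 0.12, adjusted p = 3.21e-07). The 2 proteins are close relatives with the same metal-binding role, yet both groups were free of overlap in opposite order. With vehicle, Mt1 stood at 98.005, 83.4 and 104 against 578, 603 and 607 CPM. Mt2 was at 60.9, 59.4 and 61.4 against 2.22, 2.04 and 1.86 CPM, again in opposite order. Slc39a4, the zinc importer of the brush border, measured 205, 195 and 249 against 732, 782 and 728 CPM (1.79 ± 0.07, adjusted p = 1.53e-11). The zinc exporter Slc30a1 stood at 64.9, 61.4 and 72.8 against 134, 144 and 146 CPM. Over 16 genes of iron, zinc and metallothionein, 9 were higher and 3 lower.

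Fatty acid oxidation and respiratory genes were higher and ribosomal protein genes lower. Of 30 oxidation genes, 22 were higher and 2 lower (median 0.45); without rescaling 14 and 3 (median 0.17). The peroxisomal thiolase Acaa1b was at 24.4, 23.8 and 30.4 CPM in floxed against 93.6, 103 and 84.5 CPM with Villin-Cre (1.82 ± 0.13, adjusted p = 5.48e-09). Of 32 nuclear genes of the respiratory chain, 29 were higher and 0 lower (median 0.51), falling to 19 without rescaling and to 21 (median 0.27) with replicate 3 as the only floxed library. Uqcrb, a subunit of complex III, measured 33.1, 32.02 and 38.5 against 70.2, 71.6 and 73.1 CPM (1.05 ± 0.07, adjusted p = 5.76e-09). Of 15 genes encoded in mitochondria, 12 were higher, with mt-Co2 at 175, 146 and 138 against 216, 236 and 229 CPM. With vehicle both lists leaned the other way: 16 nuclear and 10 mitochondrial members were lower (medians -0.21 and -0.37).

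All 33 tested cytosolic ribosomal protein genes were lower in Villin-Cre ileum, against each floxed source as well and without rescaling (medians -0.74 and -1.02). With vehicle 32 of them were lower too (median -0.55). The difference between the treatments passed in 16, all below 0. Rps2 stood at 255, 253 and 251 CPM in floxed against 119.8, 117 and 119.8 CPM with Villin-Cre (-1.09 ± 0.05, adjusted p = 2.74e-11). Rpl3 was at 193, 189 and 163 against 76.6, 81.1 and 79.99 CPM (-1.19 ± 0.07, adjusted p = 3.17e-10). Many processed copies of these genes exist in the mouse genome, so counts of single members are uncertain. The unfolded protein response had 14 higher and 2 lower members of 20 (9 and 6 without rescaling). Calr, a chaperone of glycoproteins, measured 297 ± 29.5 against 532 ± 13.6 CPM. The chaperone Hspa5 stood at 178 ± 6.57 against 253 ± 1.88 CPM.

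Signalling and regulatory lists had members on both sides. Of 33 nuclear receptors, 17 were higher and 5 lower, and 8 and 9 without rescaling, where the median of 0.25 turned to -0.03. Of 18 clock genes, 11 were higher and 2 lower (median 0.46), and 5 and 3 without rescaling (median 0.20). The clock repressor Per2 was at 74.8, 78.9 and 50.97 CPM in floxed against 185, 196 and 184 CPM with Villin-Cre (1.48 ± 0.11, adjusted p = 1.84e-08). Nfil3, a clock output repressor, was at 7.62, 8.95 and 7.997 against 3.46, 3.01 and 3.62 CPM (-1.17 ± 0.11, adjusted p = 1.95e-07). Neither overlapped between groups; the hour of tissue collection is not in the labels. ABC transporters other than the sterol exporters were higher in 15 and lower in 10 of 33 cases (25.7% and 23.5% of all genes). Their median of 0.19 turned to -0.05 without rescaling. Abcc9, the regulatory subunit of vascular potassium channels, was at 43.4, 45.7 and 60.1 against 22.5, 22.1 and 24.3 CPM (-1.09 ± 0.10, adjusted p = 1.06e-07).

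Growth factors of bowel adaptation were higher in 5 and lower in 6 of 20 cases (median 0.03, -0.24 without rescaling). These shares were near the 25.7% higher and 23.5% lower of all genes. Without floxed replicate 3 the counts were 7 higher and 5 lower. Tgfa, an EGF receptor ligand, was at 31.6, 32.3 and 35.5 CPM in floxed against 58.8, 59.7 and 63.02 CPM with Villin-Cre (0.86 ± 0.07, adjusted p = 5.85e-08). Igf1r, the IGF1 receptor, was at 33.1, 30.04 and 36.4 against 14.8, 13.998 and 17.03 CPM (-1.09 ± 0.10, adjusted p = 1.07e-07). Both passed against each floxed source. Immediate early genes gave 8 higher and 4 lower of 20, which turned to 4 and 8 without rescaling (medians 0.01 and -0.24). Egr1 measured 25.4, 24.4 and 31.5 against 9.46, 7.69 and 8.11 CPM. Fosl2 stood at 493, 480.5 and 413 against 882, 874 and 877 CPM. Genes of the amino acid stress response were lower in 9 of 18 cases and higher in 5 (median -0.58), and against each floxed source in 6 and 4. Asns, asparagine synthetase, was at 9.89, 9.21 and 8.84 against 2.87, 3.49 and 4.22 CPM (-1.30 ± 0.14, adjusted p = 7.35e-07). Of 18 tight junction genes, 7 were higher and 5 lower (25.7% and 23.5% of all genes), and their median of 0.08 turned to -0.20 without rescaling. Cldn15, the pore-forming claudin of the small bowel, was at 164, 160.5 and 162 against 283, 291 and 283 CPM (0.81 ± 0.05, adjusted p = 3.97e-10).

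Crypt and cell cycle genes were mostly lower. Stem and transit cells of the crypt divide to renew the villus, and their genes are low in mature enterocytes. Of 29 cell cycle genes, 26 were lower and 0 higher (median -1.61), 23 of them against each floxed source. Mki67, a marker of dividing cells, was at 87.3, 86.7 and 62.4 CPM in floxed against 16.5, 16.9 and 17.03 CPM with Villin-Cre (-2.18 ± 0.10, adjusted p = 3.54e-11). Top2a, topoisomerase of mitosis, measured 43.1, 43.5 and 33.7 against 7.60, 8.12 and 8.86 CPM (-2.22 ± 0.09, adjusted p = 1.67e-11). Floxed replicate 3 was the lowest of its group but did not overlap. Of 17 replication-dependent histones, 15 were lower (median -1.78), with Hist1h3c at 18.6, 21.9 and 21.3 against 2.45, 3.06 and 2.70 CPM. Of 21 crypt and Wnt genes, 14 were lower and 1 higher (median -0.82). Olfm4, a crypt base marker, stood at 17.9, 14.6 and 25.6 against 1.70, 1.72 and 2.70 CPM (-2.95 ± 0.17, adjusted p = 6.66e-10). Lrig1, a brake on EGF receptors, was at 65.2, 67.3 and 61.5 against 26.5, 26.04 and 26.3 CPM. Myc, a Wnt target that drives growth, was at 19.1, 19.001 and 13.7 against 3.56, 4.40 and 3.41 CPM. These 3 genes were free of overlap. With vehicle 28 of the cell cycle genes were lower as well (median -1.23).

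Paneth cells, which guard the crypt base with defensins and lysozyme, gave 17 lower and 0 higher genes of 18 (median -2.002), and this size depended on floxed replicate 3. Mptx2, a pentraxin of Paneth cells, measured 19.3, 18.9 and 3.75 CPM in floxed against 0.053, 0.955 and 0.595 CPM with Villin-Cre (-3.62 ± 0.45, adjusted p = 3.86e-06). Defa21, a defensin with near-identical copies, stood at 112, 109 and 27.7 against 12.8, 9.60 and 10.97 CPM (-2.61 ± 0.34, adjusted p = 7.25e-06). Replicate 3 lay far below the other floxed libraries in both, though above the Villin-Cre range. The list summed to 278 to 1269 CPM in floxed and 151 to 162 CPM in Villin-Cre libraries, with none at 0. Without replicate 3 the median was -2.65, and with it as the only floxed library -0.79 (12 lower, 1 higher).

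Antimicrobial genes of the epithelium were lower in 11 of 18 cases and higher in 2 (median -1.09). Reg3g, a lectin that kills Gram-positive bacteria, was at 2082, 2089 and 1545 CPM in floxed against 172, 178 and 174 CPM with Villin-Cre (-3.43 ± 0.08, adjusted p = 3.65e-14). Both groups were tight apart from replicate 3, the lowest floxed library. The related lectin Reg3b measured 4796, 4639 and 3478 against 604, 585 and 617 CPM (-2.82 ± 0.09, adjusted p = 8.19e-13). Saa1, a serum amyloid A gene induced by microbes, stood at 279.5, 278 and 83.2 against 2.98, 2.58 and 2.27 CPM (-5.92 ± 0.30, adjusted p = 1.11e-10). Pigr, which carries IgA into the lumen, was at 2165, 2169.5 and 1489.7 against 603, 591 and 599 CPM (-1.68 ± 0.10, adjusted p = 8.00e-10). All 3 floxed libraries lay above the Villin-Cre range in each of the 4 genes. Reg3g was lower with vehicle too (3884 ± 31.1 against 1469 ± 14.7 CPM), whereas Saa1 was higher (54.7 ± 2.25 against 163 ± 8.42 CPM).

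Goblet cell genes were mostly lower and tuft cell genes mostly higher. Of 13 goblet cell genes, 8 were lower and 1 higher (median -0.33), and 12 were lower without rescaling. Spink4, a goblet cell protease inhibitor, measured 30.7, 29.2 and 31.8 against 7.28, 7.21 and 6.92 CPM (-2.02 ± 0.08, adjusted p = 1.60e-11). Clca1, a secreted mucus protein, stood at 1030.3, 1033 and 1192 against 803, 798 and 802 CPM. Tuft cell genes were higher in 9 of 14 cases and lower in none (median 0.61), with the taste channel Trpm5 at 13.7, 12.4 and 16.8 against 26.95, 25.8 and 26.1 CPM (0.87 ± 0.14, adjusted p = 8.79e-05). Sh2d6 was at 8.34, 8.38 and 8.67 against 19.3, 19.7 and 18.8 CPM. Enteroendocrine genes gave 7 lower and 3 higher of 18, and 4 and 0 against each floxed source; Gcg, the precursor of GLP-1 and GLP-2, measured 5.12, 5.47 and 11.4 against 2.55, 2.53 and 2.38 CPM. Nts, neurotensin, stood at 54.4, 53.4 and 72.6 against 87.6, 85.6 and 83.1 CPM. Gcg was lower and Nts higher, but Nts did not pass with replicate 3 as the only floxed library or without rescaling.

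Lymphocyte genes depended on which floxed libraries were used. All 13 tested B cell genes were lower (median -2.38). Cd37, a tetraspanin of leukocytes, was at 35.1, 30.5 and 5.47 CPM in floxed against 3.08, 2.96 and 2.81 CPM with Villin-Cre (-2.44 ± 0.43, adjusted p = 1.61e-04). Replicates 1 and 2 of the floxed group were high, and replicate 3 stood close to the Villin-Cre libraries. With replicate 3 as the only floxed library, 1 B cell gene was lower (median -0.05). The list summed to 15.6 to 226 CPM in floxed libraries, to 11.7 to 13.1 CPM in Villin-Cre libraries and to 19.4 to 20.99 and 20.8 to 24.6 CPM in floxed and Villin-Cre libraries given vehicle.

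T and NK cell genes were lower in 6 of 22 cases with GW3965 (27.3%, median -0.33), a share near the 23.5% of all genes. Against each floxed source 3 were lower (background 14.1%), and without rescaling 16 (background 38.3%). Gzmb, granzyme B of killer cells, measured 11.5, 10.6 and 7.41 CPM in floxed against 3.67, 4.73 and 4.05 CPM with Villin-Cre (-1.13 ± 0.16, adjusted p = 1.55e-05). Cd3e, a chain of the T cell receptor complex, stood at 9.80, 12.4 and 11.7 against 7.28, 6.83 and 6.49 CPM (-0.68 ± 0.16, adjusted p = 0.00205). With vehicle 18 of them were higher in Villin-Cre ileum (median 1.06), with Gzmb at 7.78, 6.55 and 7.84 against 24.2, 27.9 and 30.9 CPM. The difference between the 2 treatments passed its own test in 19 genes, all toward lower with GW3965.

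Other immune lists were mixed. Of 15 macrophage genes, 8 were higher and 2 lower (median 0.32; 4 and 2 without rescaling). Mertk, a receptor for dying cells, was at 192, 195 and 146 against 355, 359 and 358 CPM (1.02 ± 0.08, adjusted p = 3.23e-08). The whole list summed to 309 to 395 CPM in floxed and 543 to 547 CPM in Villin-Cre libraries, so Mertk was a large part of it. Which cells gave the Mertk reads was not tested. The scavenger receptor Cd163 measured 3.67, 4.16 and 2.65 against 0.797, 1.48 and 0.703 CPM (-1.44 ± 0.22, adjusted p = 3.67e-05). Of 13 plasma cell genes 5 were higher and 3 lower (25.7% and 23.5% of all genes), which turned to 3 and 4 without rescaling (medians 0.09 and -0.19). Igha, the IgA heavy chain, stood at 601, 608 and 558 against 986, 989.8 and 1008 CPM (0.76 ± 0.05, adjusted p = 5.07e-09). Ighm, the IgM heavy chain, was at 73.1, 76.4 and 14.9 against 3.99, 5.59 and 4.86 CPM (-3.07 ± 0.40, adjusted p = 7.51e-06). Type I interferon genes were higher in 13 of 28 cases and lower in 4, led by Oasl1 at 28.5, 28.9 and 34.9 against 81.3, 83.99 and 77.1 CPM (1.38 ± 0.09, adjusted p = 1.33e-09); the median of 0.28 was 0.01 without rescaling. Interferon-induced GTPases were lower in 12 of 14 cases, but in 2 against each floxed source, and several have near-identical copies. Gbp2 passed against each source, at 21.9, 21.4 and 11.4 against 7.07, 6.21 and 8.05 CPM. Among 12 MHC class II genes, 2 were higher and 4 lower; H2-Ab1 measured 676, 684 and 577 against 762, 790.3 and 776 CPM, and its difference of 0.27 turned to -0.01 without rescaling. With replicate 3 as the only floxed library, 7 class II genes were higher and 0 lower, and without it 2 and 8.

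Genes of the muscle wall, where the Villin promoter does not drive Cre, were lower in Villin-Cre ileum given GW3965. Of 17 smooth muscle genes, 15 were lower and 1 higher (median -1.22), with the same counts against each floxed source and without rescaling. Acta2, smooth muscle actin, stood at 377, 399.7 and 521 CPM in floxed against 153, 162 and 162 CPM with Villin-Cre (-1.42 ± 0.08, adjusted p = 7.44e-10). Tagln, an actin cross-linker, was at 207, 209 and 305 against 79.7, 88.1 and 83.2 CPM (-1.50 ± 0.10, adjusted p = 5.07e-09). Replicate 3 was the highest floxed library in both. With vehicle 10 of them were higher and 0 lower in Villin-Cre ileum, with Acta2 at 659, 652 and 677 against 851, 853 and 884 CPM, and a list median of 0.33. The difference between the treatments passed in 15 genes below 0 and 1 above (median -1.64, background 17.6% and 16.3%).

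Nerve and glia genes of the wall were lower as well. Of 20 neuron and glia genes, 13 were lower and 0 higher (median -1.06). Nos1, the enzyme of inhibitory motor neurons, measured 7.80, 8.38 and 10.6 CPM in floxed against 2.45, 2.58 and 2.86 CPM with Villin-Cre (-1.58 ± 0.15, adjusted p = 1.86e-07). Tubb3, a neuronal tubulin, stood at 4.35, 3.28 and 3.66 against 0.957, 0.669 and 0.324 CPM. Interstitial cells of Cajal and pericytes gave 7 lower and 1 higher of 10, with the pacemaker receptor Kit at 24.6, 24.5 and 29.7 against 11.004, 10.2 and 9.94 CPM (-1.29 ± 0.10, adjusted p = 1.13e-08). Rgs5, a pericyte gene, was at 186, 184 and 283 against 78.5, 74.4 and 74.8 CPM. All of these floxed groups lay above the Villin-Cre range. The summed level of the neuron and glia genes was 72.2 to 80.9 CPM in floxed and 40.2 to 42.9 CPM in Villin-Cre libraries, and with vehicle 8 of them were higher and 0 lower. The labels say that ilea were removed and frozen, with no word on separating layers.

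Matrix genes depended on the floxed source. Of 33 fibroblast and matrix genes, 11 were lower and 2 higher (median -0.03). Without replicate 3 the counts were 11 lower and 16 higher, and with it as the only floxed library 24 and 1. Thbs2, a matricellular protein, measured 26.98, 25.9 and 22.9 against 5.74, 7.17 and 5.40 CPM (-1.97 ± 0.10, adjusted p = 1.71e-10). Dcn, the proteoglycan decorin, stood at 58.3, 59.2 and 47.7 against 19.2, 18.1 and 16.1 CPM (-1.60 ± 0.08, adjusted p = 1.79e-10); both were lower against each source. Endothelial genes mostly did not pass (12 of 17), and the 4 higher and 1 lower turned to 2 and 6 without rescaling; Kdr, the VEGF receptor, was at 14.6, 13.1 and 15.7 against 25.3, 25.8 and 26.8 CPM (0.83 ± 0.09, adjusted p = 5.01e-07). Adipocyte genes gave 4 higher and 8 lower of 13, and 3 and 4 against each floxed source. Markers of other organs were low: hepatocyte and pancreas genes summed to 213 to 229.98 CPM in floxed and 132 to 136 CPM in Villin-Cre libraries, mostly Cps1, which enterocytes also express, at 149, 149 and 186 against 97.9, 98.9 and 95.02 CPM, with Ins2 at 0 in the Villin-Cre libraries.

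**Figure D3:**
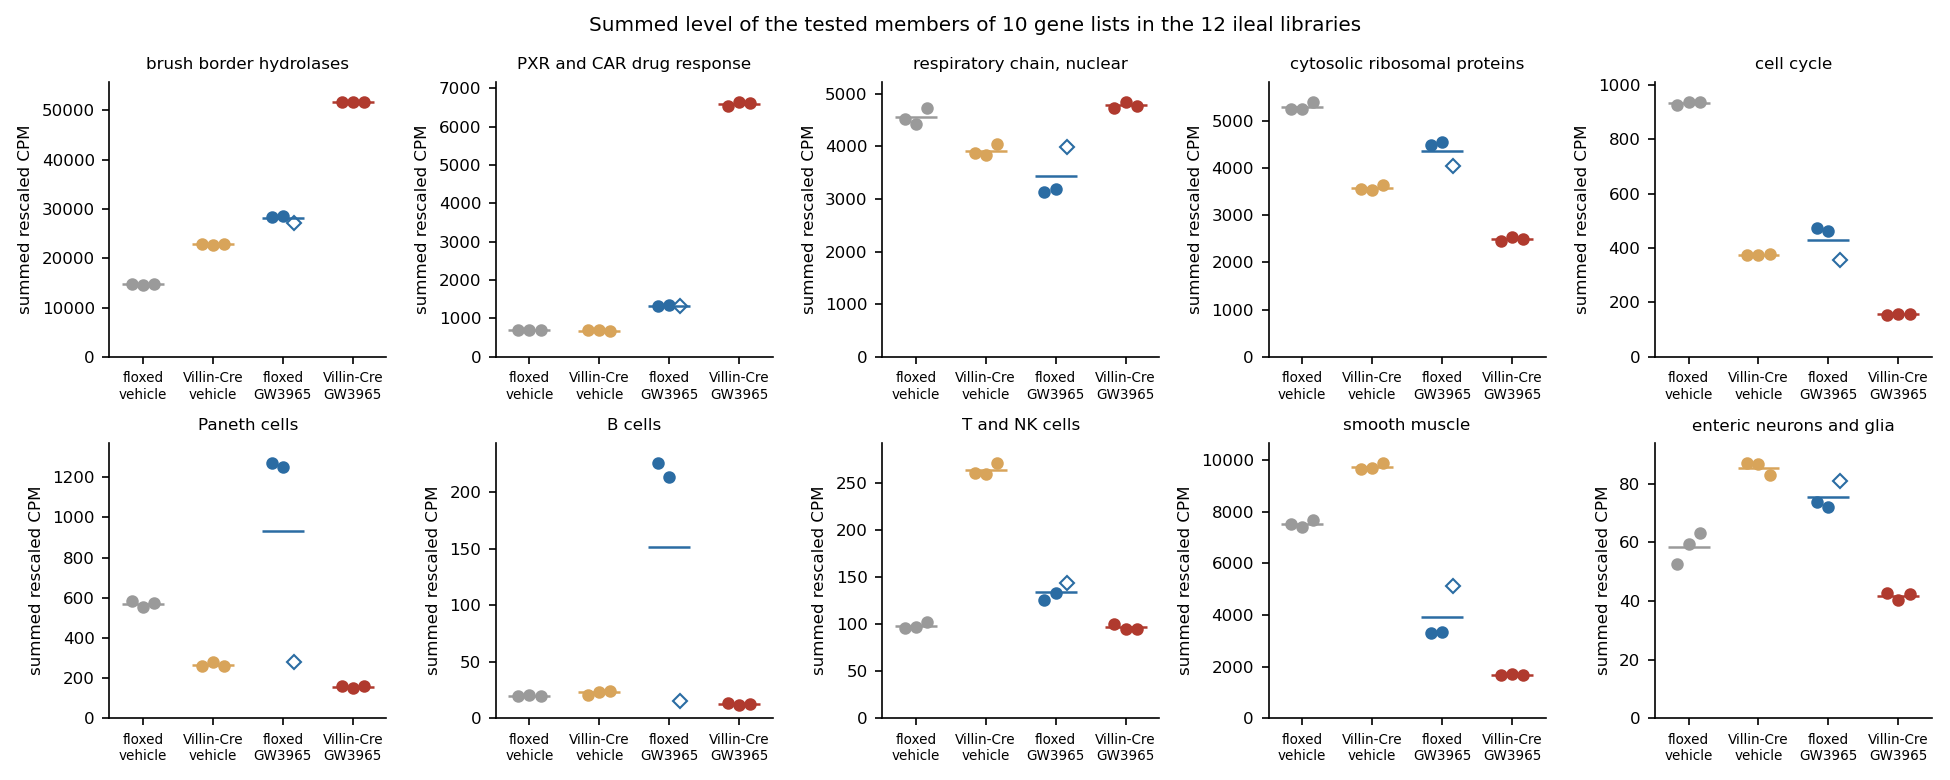
Summed rescaled CPM (y axis, from 0) of the tested members of 10 gene lists in the 12 ileal libraries, by genotype and treatment. Points are libraries, lines group means, and the open diamond is floxed GW3965 replicate 3, which lies apart in the Paneth and B cell panels; drug response genes are highest in Villin-Cre libraries given GW3965.

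The naming rule for the largest changes took only called genes whose groups did not overlap (no overlap in 54.6% of all genes tested). Among single genes, the largest falls by this rule were of 2 kinds, told apart after their values were seen. In most, floxed replicates 1 and 2 were high and replicate 3 was far lower. Ffar2, a receptor for short-chain fatty acids, measured 7112, 7059 and 61.4 CPM in floxed against 14.4, 13.2 and 15.5 CPM with Villin-Cre (-6.62 ± 1.13, adjusted p = 1.24e-04). Bbof1, a basal body gene, stood at 1701, 1763 and 14.98 against 2.76, 3.54 and 2.27 CPM. Hps4, a gene of lysosome-related organelles, was at 1644, 1575 and 38.7 against 19.7, 23.4 and 25.2 CPM. Crmp1, Carns1, Fbxl15, Nrxn2 and Stra6 had the same order. With replicate 3 as the only floxed library, the differences of Ffar2 and Bbof1 were -2.06 and -2.22 and still passed, and that of Fbxl15 (-0.23) did not. With vehicle, Ffar2 measured 1306, 1166 and 1396 CPM in floxed against 21.5, 21.2 and 21.4 CPM with Villin-Cre.

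In Saa1, Mptx2 and Slc6a14, replicate 3 was also the lowest floxed library, but lay well above the Villin-Cre range. Slc6a14, an amino acid carrier, stood at 40.0, 45.6 and 13.1 CPM in floxed against 0.425, 0.764 and 0.432 CPM with Villin-Cre (-4.83 ± 0.32, adjusted p = 3.07e-09).

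The largest rises were free of such a split, apart from Plb1. Lemd1, a LEM domain gene, was at 0.227, 0 and 0.168 CPM in floxed against 32.5, 38.4 and 37.8 CPM with Villin-Cre (5.87 ± 0.23, adjusted p = 7.30e-12). Ulk4, a pseudokinase, measured 5.94, 6.30 and 7.37 against 146, 143 and 148 CPM (4.38 ± 0.11, adjusted p = 3.87e-14). Plb1, the phospholipase B of the brush border, stood at 32.7, 34.7 and 4.84 against 392, 375 and 386 CPM (4.39 ± 0.45, adjusted p = 4.91e-07), with replicate 3 the lowest. The lack of overlap between the groups in these 3 genes was a condition of their choice. Lemd1 met the filter of 0.5 CPM in 3 libraries only through the Villin-Cre libraries given GW3965, so its p-value adds no support. Slc6a2, the noradrenaline transporter, was at 0, 0 and 0.210 against 23.2, 26.4 and 25.2 CPM. Wnt3a, a Wnt ligand, measured 0.091, 0 and 0 against 11.7, 10.7 and 12.6 CPM. Slc6a2 and Wnt3a were at or near 0 in floxed ileum given GW3965. Sdr9c7, a short-chain dehydrogenase, stood at 0.272, 0.156 and 0.168 against 19.4, 21.2 and 22.7 CPM. Fam151a was at 0.544, 0.573 and 0.337 against 18.2, 23.03 and 15.8 CPM. Fmr1os, at 0.181, 0.104 and 0.084 against 17.1, 16.9 and 15.5 CPM, overlaps Fmr1 on the other strand, and reads of the pair cannot be told apart without strand. Cyp2c55, Cyp3a11, Gstm3 and Mt1 complete the 12. Slc6a2, Wnt3a, Sdr9c7 and Fmr1os lay under 0.5 CPM in every floxed library given GW3965, so that group did not bring them past the filter.

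**Figure D4:**
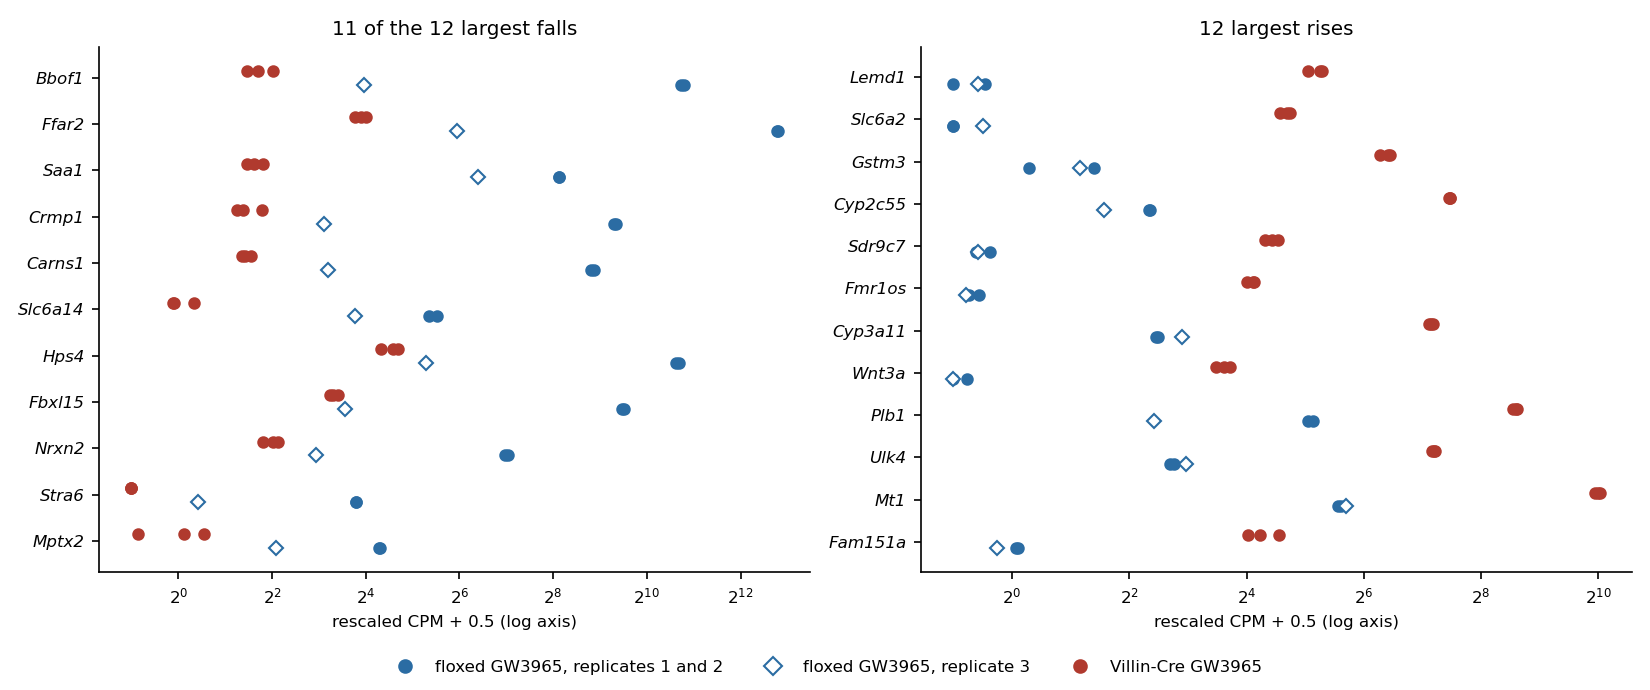
Rescaled CPM + 0.5 (x axis, log) of 11 of the 12 largest falls and of the 12 largest rises (y axis) in the 6 ileal libraries given GW3965, with points for libraries. The open diamond is floxed replicate 3, which lies beside the Villin-Cre libraries for Fbxl15 and beside its own group for Mt1.

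The genotype difference was then set beside that without the drug, which rests on 6 other libraries. With vehicle 3753 genes were higher (20.1%) and 2726 lower (14.6%) in Villin-Cre ileum. Of the 4791 genes higher with GW3965, 1919 were higher with vehicle too (40.1% of them and 51.1% of those higher with vehicle) and 420 were lower. Of the 4389 lower genes, 1313 were lower with vehicle (29.9% and 48.2%) and 735 were higher. The difference between the 2 genotype differences passed its own test in 6338 genes (33.9%), of which 3045 lay above 0 (16.3%) and 3293 below (17.6%).

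Abca1 differed more with GW3965 than with vehicle (-1.70 ± 0.19, adjusted p = 3.88e-06). Plb1 changed order: it measured 103, 98.04 and 100.2 CPM in floxed against 5.30, 4.52 and 3.94 CPM with Villin-Cre when vehicle was given, and the difference of differences was 8.70 ± 0.64, adjusted p = 3.39e-08. Slc6a14 changed order the other way, from 2.10, 2.87 and 2.28 against 20.3, 17.3 and 15.8 CPM with vehicle (-7.49 ± 0.46, adjusted p = 4.12e-09). Apol8, an apolipoprotein L gene, stood at 0.131, 0.154 and 0.285 against 25.3, 25.1 and 31.4 CPM with vehicle and at 5.94, 4.74 and 0.168 against 0.319, 0.287 and 0.324 CPM with GW3965, where floxed replicate 3 did not stand above the Villin-Cre libraries. Among the drug response genes, 17 of 21 lay above 0 in this test, and 30 of 32 nuclear respiratory genes. Abcb1a was at 159.6 ± 6.54 against 109.9 ± 3.74 CPM with vehicle (3.29 ± 0.07, adjusted p = 6.81e-15). Of the brush border genes 13 of 17 lay above 0 and 0 below, and 14 were higher with vehicle (median 0.66).

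**Figure D5:**
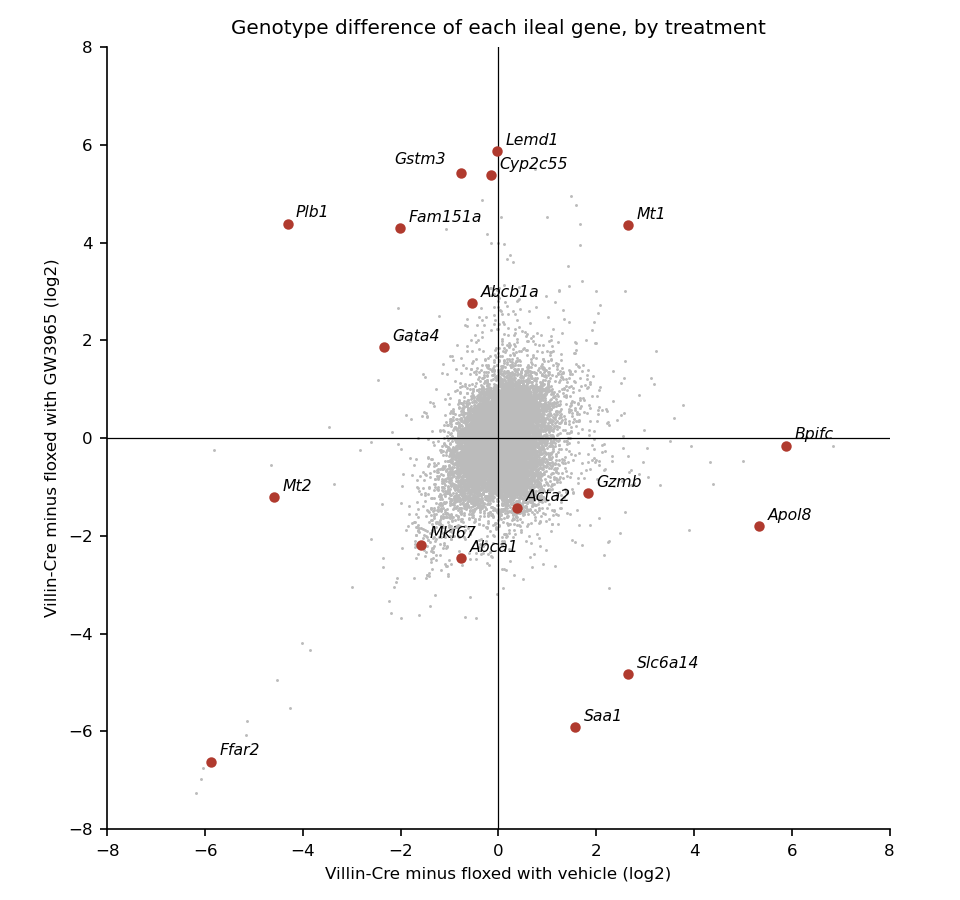
Log2 difference, Villin-Cre minus floxed ileum, of each tested gene (points) with vehicle (x axis) and with GW3965 (y axis), 3 libraries per group and no library shared between the axes; named genes are in red. Ffar2 (-5.88 and -6.62) is low on both axes, Mt1 (2.65 and 4.36) is high on both, and Plb1 (-4.32 and 4.39) changes sign.

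Genes near the deleted locus gave no common direction. Within 1 Mb of Abca1, which lies on chromosome 4 of GRCm38, Nipsnap3b (23.8 ± 1.58 against 39.96 ± 2.21 CPM) and AI427809 (9.98 ± 0.868 against 14.1 ± 0.159 CPM) were higher and Smc2 (8.76 ± 1.61 against 5.19 ± 0.719 CPM) lower. AI427809 did not pass with replicate 3 as the only floxed library. The share of tested genes called ran from 45.3% on chromosome 2 to 53.7% on chromosome 3 among the autosomes and was 45.8% on the X chromosome. Of 17 genes tested on the mitochondrial chromosome, 13 were higher.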

How the data were processed

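RNA of flash-frozen ileum was freed of ribosomal RNA, primed with random hexamers and sequenced in paired 150-base reads, per the labels' protocols. GRCm38, STAR 2.5.1a, Subread and featureCounts 1.4.6-p5 are named in the submitters' processing notes. How strand was handled is not stated in those sources. The authors deposited log2 values of CPM with a small constant, in which the lowest value, -5.62, stands for 0 reads. From the deposited log2 values 100% of values gave whole reads (counts within 0.05 reads), and 66.7 to 70.4% of gene counts from 1 to 20 were even.

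Of 40757 deposited entries, 276 exact repeats were dropped, which left 40481 genes. 157 symbols are shared by more than 1 gene ID. CPM was rescaled by the median of gene ratios over the 12 ileal libraries, from 18302 genes above 0 in all of them (factors 1.04 to 1.09 in floxed and 0.864 to 0.888 in Villin-Cre libraries given GW3965). log2(CPM + 0.5) was tested with limma 3.58.1 (R 4.3.3, trended variance, 4 group means, Benjamini-Hochberg, threshold 0.05) over 18671 genes with at least 0.5 CPM in at least 3 libraries. Adjusted p-values in the report come from this limma test.

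Genes named were Abca1, the LXR genes with a mean of 1 CPM or more, up to 4 members of each list by smallest p, and up to 12 genes each way by fold change and 4 each way by the difference between treatments. For those last groups a mean of 1 CPM and a pass of the threshold in the test concerned were needed. Predicted genes, pseudogenes and receptor segments were left out. The fold change choice also needed groups free of overlap. Some of the genes so chosen are not reported here. The comparison, the 52 lists and the alternatives were chosen with earlier results of these data known. Alternatives changed the scaling, filter, pseudocount, model, libraries in the fit, block and unit of replication. The use of replicate 3 as the only floxed library was chosen after seeing the data.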

Additional observations from a re-analysis of the deposited data

Results flagged for a closer look

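For 9 genes, chosen as Abca1 and the largest of their kind, the genotype difference with GW3965 and that with vehicle differed by a test of the difference itself. For Abca1 it was -1.70 on the log2 scale. Above 0 were Plb1 (8.70), Fam151a (6.32), Gstm3 (6.20) and Lemd1 (5.90). Below 0 were Slc6a14 (-7.49), Saa1 (-7.48), Apol8 (-7.13) and Bpifc (-6.04). All 9 had adjusted p-values under the limma threshold, which for all but Abca1 was a condition of the choice.

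Bpifc, a gene of the bactericidal protein family, was at 0.454, 0.312 and 0 CPM in floxed and 0.213, 0.287 and 0 CPM in Villin-Cre libraries with GW3965, and at 0, 0 and 0 against 34.3, 27.1 and 26.2 CPM with vehicle. It was thus high in the Villin-Cre libraries given vehicle and near 0 in the other ileal libraries, and it passed the filter only through the former. Fam151a was at 2.36, 3.33 and 2.90 CPM in floxed and 0.216, 0.496 and 0.281 CPM in Villin-Cre libraries given vehicle, the opposite order to that with GW3965. Gstm3 was at 2.36, 1.43 and 1.42 against 1.19, 1.24 and 0.225 CPM with vehicle and Lemd1 at 0.175, 0.154 and 0.190 against 0.108, 0.062 and 0.338 CPM. Neither passed the threshold without the drug.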

How the results depend on the processing

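As deposited, without rescaling, 2529 genes were higher and 7153 lower with GW3965, and 1792 and 5735 with vehicle. On the deposited log2 values these were 2458 and 7179, and 1721 and 5540. Of the 9180 genes called with GW3965, 6918 kept their call without rescaling and 18 took the other one. The median of HDL and apolipoprotein genes turned to -0.041 without rescaling and -0.025 on the deposited values, and that of tight junction genes to -0.20 in both. H2-Ab1 turned to -0.012 in both, and Nr1h2 to -0.25 in both. With close libraries averaged, 1 gene was higher and 0 lower with GW3965 (4365 at an unadjusted p under 0.05), 0 either way with vehicle (1701) and 0 either way for the difference between them (2047). Leaving out 1 library at a time gave 4311 to 5110 higher and 3779 to 4599 lower genes with GW3965, 3159 to 3375 and 2182 to 2369 with vehicle, and 2633 to 3635 above and 2846 to 3806 below 0 for the difference between them. With replicate 3 as the only floxed library, 6401 calls were kept, 7 took the other direction, and Apol8 turned to 0.27. The replicate block gave 4790 higher and 4377 lower genes with GW3965, and 8998 of the 9180 calls were kept. Libraries of the same number in the 2 GW3965 groups did not deviate together (correlations -0.011 to 0.011, other numbers -0.021 to 0.020). Over all ileal groups the same-number correlations ran from -0.039 to 0.054. With 3 libraries per group these values cannot exclude a shared origin by number. Voom on the recovered reads kept 8726 calls, a pseudocount of 2 kept 9042, and no filter kept 8321. Over 232 named genes and all alternatives, 3403 values kept direction and side of the threshold, 284 no longer passed, 3 newly passed and 5 changed sign. Depth limits genes near 0 CPM, where 1 read decides a value. The causes of these changes were not tested, apart from scaling, which applies 1 factor to all genes of a library. With 0.5 CPM added, low genes move less: without rescaling Abca1 went from -2.46 to -2.74 and Apol8 from -1.80 to -1.94.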

Other observations

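The same genotypes were also measured in liver, an organ outside the intestinal epithelium. Over 16340 genes tested in both tissues, 512 were called the same way in all 4 genotype comparisons (ileum and liver, each with GW3965 and with vehicle), 374 higher and 138 lower. In ileum 49.2% of tested genes were called with GW3965 and 34.7% with vehicle. The overlap that such shares give by coincidence was not tested. Whether ileum and liver libraries share animals is not in the labels. At least 2-fold higher in all 4 were Mt1, the claudin gene Cldn4, Bco1, which cleaves beta-carotene, and the tuft cell gene Sh2d6. Mt1 was higher in liver by a log2 difference of 4.16 with GW3965 (means of 11.8 against 216 CPM) and 3.44 with vehicle, beside 4.36 and 2.65 in ileum. Cldn4 was higher by 3.48 in liver and 1.44 in ileum with GW3965, and Bco1 by 2.29 and 1.23. In liver with GW3965, Sh2d6 was near 0 (means of 0.0748 in floxed against 1.42 CPM with Villin-Cre) and Cldn4 was low in floxed mice (0.638 against 11.2 CPM).

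At least 2-fold lower in all 4 were 9 genes. Inmt, which methylates indole amines, had log2 differences of -4.03 in liver and -2.50 in ileum with GW3965. Hpd, an enzyme of tyrosine breakdown, had -2.79 and -1.33, and Shmt1, of folate metabolism, -1.56 and -1.44. Lipg, endothelial lipase, had -1.46 and -1.75. The others were the cell cycle genes E2f8, Spc24 and Cenpm, and Aspg and Cpn2. These genes were singled out after their values were seen.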
